A study of Danio rerio with 12 samples.

Results

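The epicardial and mesenchymal marker genes described here are aldh1a2, tbx18, wt1a and vim in the adult zebrafish heart. They were taken as all probe sets to which the platform annotation gives a single symbol among these names. This gave 6 probe sets (1 each for aldh1a2, tbx18 and vim, and 3 for wt1a) of 15502 tested, or 4 of the 8793 genes with a single symbol. Each of 4 groups had 3 Affymetrix Zebrafish Genome Arrays, 12 in all. Hearts of sexually mature adult fish were either unamputated or taken 7 days after amputation. The wild-type (WT) fish were of the AB line. The dnHIF1a fish, unamputated and amputated alike, carried cmlc2a:Ert2-Cre-Ert2 together with cmlc2a:LnL:GFP and, as a further transgene, cmlc2a:LrL:dnHIF1a. These names place a Cre recombinase, a GFP reporter and dnHIF1a, a dominant negative HIF1a, under cmlc2a, a promoter active in heart muscle cells. HIF1a is a subunit of the transcription factor that responds to low oxygen. The labels give neither an inducing treatment nor the background strain of this line, so line and dnHIF1a cannot be told apart. They do not say whether an array holds 1 heart or a pool. The p-values therefore measure the spread between these arrays, which may be technical.

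The epicardium is the cell layer that covers the heart. In the zebrafish it is activated by injury, spreads over the wound and gives rise to mesenchymal cells of the outer wall. The transcription factors tbx18 and wt1a mark it, and aldh1a2 encodes the enzyme that makes retinoic acid, which activated epicardium and endocardium produce after injury. The gene vim encodes vimentin, the intermediate filament protein of mesenchymal cells, which leukocytes and endothelial cells also contain.

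The values are log2 expression from robust multi-array averaging (RMA), and the array medians lay between 5.55 and 5.59. The mean of 8 cardiomyocyte markers was between 12.83 and 13.38 on every array. All arrays entered a linear model (limma) with 1 mean for each group, and a probe set was called at a Benjamini-Hochberg adjusted p under 0.05. Differences are given on the log2 scale ± SE. The epicardial markers tcf21 and wt1b were not analysed here.

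vim had the lowest level in unamputated WT hearts and was higher in every other group. Its log2 values on arrays 1, 2 and 3 were 7.46, 7.52 and 7.44 in unamputated WT hearts (mean 7.47 ± 0.042, SD, n = 3). In amputated WT hearts they were 8.84, 8.87 and 8.98 (8.9 ± 0.074, SD, n = 3). The 3 amputated arrays lay above the 3 unamputated ones without overlap. vim thus rose in WT hearts by 1.42 ± 0.10, or 2.68-fold, with an adjusted p of 1.65e-06. More cells of a type and more RNA per cell cannot be told apart in whole hearts.

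In dnHIF1a hearts vim started from a higher level. The unamputated arrays gave 8.39, 8.37 and 8.78 (8.51 ± 0.23, SD, n = 3), and the amputated arrays gave 9.05, 9.02 and 9.16 (9.08 ± 0.074, SD, n = 3). The groups did not overlap, and vim rose by 0.56 ± 0.10, or 1.48-fold (adjusted p = 0.00396). Array 3 was the highest of the unamputated dnHIF1a arrays and stood closer to the amputated hearts than the other two.

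Before amputation vim was 1.04 ± 0.10 higher in dnHIF1a than in WT hearts, a 2.06-fold difference (adjusted p = 3.26e-05). After amputation the difference was 0.18 ± 0.10 with an adjusted p of 0.285, although all 3 dnHIF1a arrays lay above the WT arrays. Its 95% interval ran from -0.04 to 0.40. The amputation response of vim was smaller in dnHIF1a than in WT hearts by a difference of -0.86 ± 0.14 (95% interval -1.17 to -0.55, adjusted p = 0.0117). With the mean of 18 erythrocyte genes as a covariate this difference was -0.78 with an adjusted p of 0.105, and without any single array its adjusted p stayed between 0.00711 and 0.0369. The 4 groups were ordered, from low to high, as unamputated WT, unamputated dnHIF1a, amputated WT and amputated dnHIF1a, and no neighbours in this order overlapped.

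**Figure D1:**
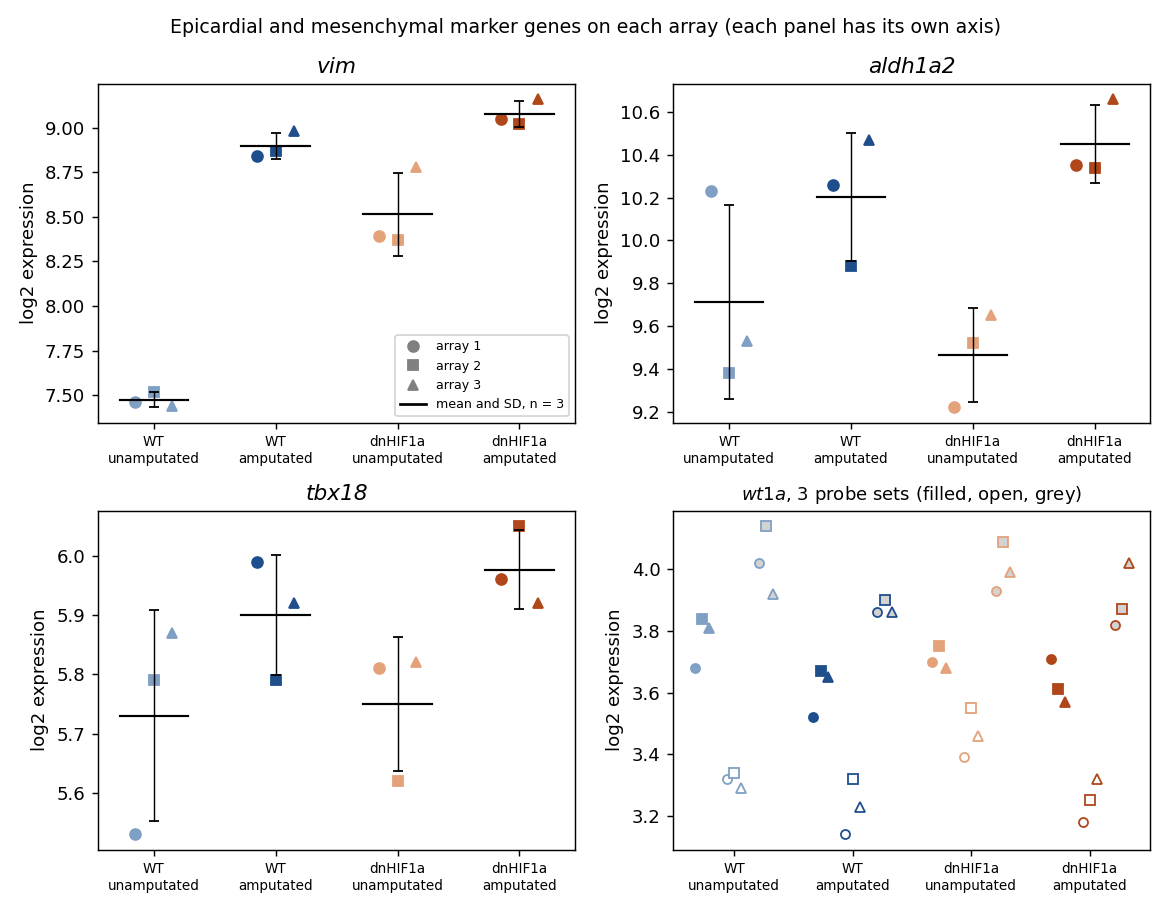
Log2 expression (vertical axes, each panel on its own scale) of vim, aldh1a2, tbx18 and the 3 wt1a probe sets in the 4 groups. Symbols are single arrays, bars are means with SD (n = 3; none drawn for wt1a). The 3 unamputated WT arrays of vim lie between 7.44 and 7.52, below all others, and all wt1a values lie between 3.14 and 4.14.

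aldh1a2 gave a strong signal in all groups and was higher after amputation in dnHIF1a hearts. In unamputated dnHIF1a hearts its log2 values were 9.22, 9.52 and 9.65 (9.46 ± 0.22, SD, n = 3). In amputated dnHIF1a hearts they were 10.35, 10.34 and 10.66 (10.45 ± 0.18, SD, n = 3). The groups did not overlap, and aldh1a2 rose by 0.99 ± 0.21, or 1.98-fold (adjusted p = 0.0104). This call held in all 20 alternative settings, with adjusted p-values up to 0.048.

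In WT hearts the response of aldh1a2 was not called. The unamputated arrays gave 10.23, 9.38 and 9.53 (9.71 ± 0.45, SD, n = 3), and the amputated arrays gave 10.26, 9.88 and 10.47 (10.2 ± 0.3, SD, n = 3). Array 1 of the unamputated hearts lay within the range of the amputated hearts, and the other two lay below it. The difference was 0.49 ± 0.21 with an adjusted p of 0.11. Without array 1 of unamputated WT it was 0.75 with an adjusted p of 0.00979, so this array decided the call. With the erythrocyte covariate it was 0.03 with an adjusted p of 0.972. The mean of the 18 erythrocyte genes was 7.6 to 7.99 in unamputated and 8.28 to 8.99 in amputated WT hearts, and its part in the result was not tested beyond that fit.

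The amputation response of aldh1a2 did not differ detectably between the lines, at 0.50 ± 0.29 (95% interval -0.14 to 1.14, adjusted p = 0.426). Averaged over both lines it was 0.74 ± 0.15 (adjusted p = 0.00294), but 0.47 with an adjusted p of 0.141 with the erythrocyte covariate. Between the lines, aldh1a2 differed by -0.25 ± 0.21 before amputation (95% interval -0.70 to 0.20, adjusted p = 0.523). After amputation the difference was 0.25 ± 0.21 (-0.21 to 0.70, adjusted p = 0.505). The order of its group means was unamputated dnHIF1a, unamputated WT, amputated WT and amputated dnHIF1a, and the ranges of all 3 pairs of neighbours overlapped.

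tbx18, a T-box transcription factor of the epicardium, varied little. Its log2 values were 5.53, 5.79 and 5.87 in unamputated WT hearts (5.73 ± 0.18, SD, n = 3) and 5.99, 5.79 and 5.92 in amputated WT hearts (5.9 ± 0.10, SD, n = 3). In dnHIF1a hearts they were 5.81, 5.62 and 5.82 before amputation (5.75 ± 0.11, SD, n = 3) and 5.96, 6.05 and 5.92 after it (5.98 ± 0.067, SD, n = 3). The WT groups overlapped, while the dnHIF1a groups did not.

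Neither single-line response of tbx18 was called. The difference was 0.17 ± 0.097 in WT (95% interval -0.04 to 0.38, adjusted p = 0.228) and 0.23 ± 0.097 in dnHIF1a (0.02 to 0.44, adjusted p = 0.18). Averaged over both lines it was 0.20 ± 0.068, or 1.15-fold, with an adjusted p of 0.0494. That call held in 5 of 19 alternatives. It was lost on leaving out any single array other than array 3 of unamputated WT or array 2 of amputated WT, with values of 0.15 to 0.23 and adjusted p-values of 0.0281 to 0.115. The responses of the lines differed by 0.057 ± 0.14 (95% interval -0.24 to 0.35, adjusted p = 0.874). Between the lines tbx18 differed by 0.02 ± 0.097 before (-0.19 to 0.23, adjusted p = 0.933) and 0.077 ± 0.097 after amputation (-0.13 to 0.29, adjusted p = 0.679). Neighbours in the order of its group means overlapped throughout.

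The Wilms tumour transcription factor gene wt1a gave signals near the bottom of the measured scale. Its probe set Dr.8214.1.S1_at ranged from 3.52 to 3.84 over all arrays, Dr.8214.2.A1_at from 3.14 to 3.55 and Dr.8214.2.S1_a_at from 3.82 to 4.14. Their group means ranked between the percentiles 4.6 and 21.0 of all tested probe sets, against 52.8 to 56.7 for tbx18, 78.4 to 91.6 for vim and 93.6 to 96.4 for aldh1a2. These ranks place each signal on the array's scale and do not compare amounts of transcript between genes. At signals this low, with no detection calls used, its log2 differences cannot be set against background and are not turned into linear folds.

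None of the wt1a probe sets was called in either line alone or between the lines. The mean response over both lines was called for Dr.8214.2.A1_at (-0.15 ± 0.051, adjusted p = 0.0443), in 7 of 18 alternatives, and not for Dr.8214.1.S1_at (adjusted p = 0.0986) or Dr.8214.2.S1_a_at (adjusted p = 0.115). Leaving out single arrays moved its adjusted p between 0.0311 and 0.105, with the call kept in 3 of 12 cases. The unamputated dnHIF1a arrays of this probe set read 3.39, 3.55 and 3.46, and the amputated ones 3.18, 3.25 and 3.32.

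**Figure D2:**
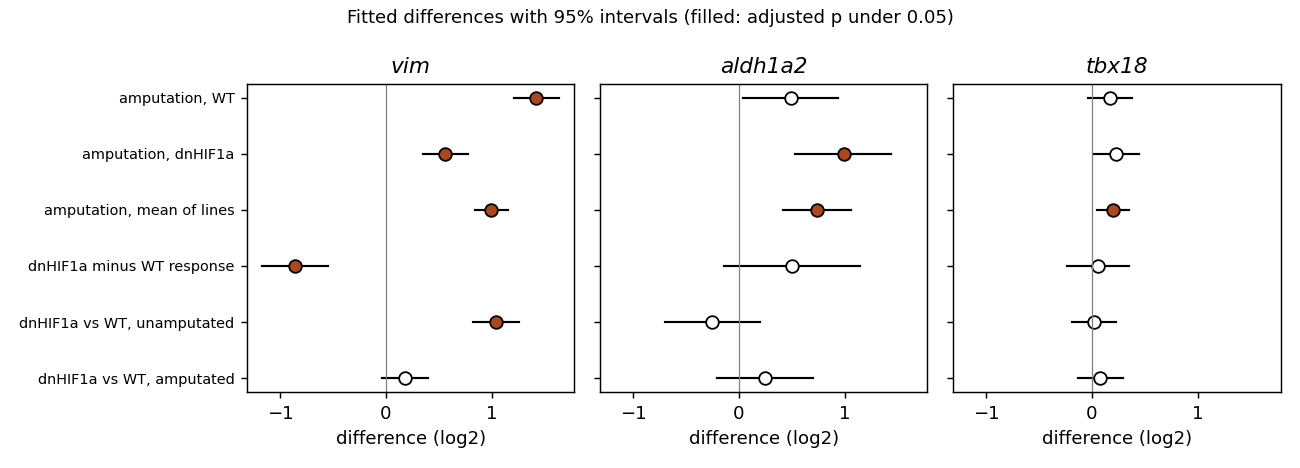
Fitted log2 differences (horizontal axis) of vim, aldh1a2 and tbx18 in the 6 comparisons, with 95% intervals as lines. Filled points have an adjusted p under 0.05. vim is called in 5 of the 6 comparisons, aldh1a2 in dnHIF1a and in the mean of the lines, and tbx18 in the mean of the lines only, at an adjusted p of 0.0494.

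The members' calls were set against those of all probe sets. In the WT response 1 of the 6 probe sets was called, where 22.8% of all tested probe sets were. In the dnHIF1a response 2 of 6 were called against 9.75%, and in the difference of the responses 1 of 6 against 2.24%. The mean response had 3 probe sets called higher and 1 lower, against 26.2% of all probe sets in either direction. Between unamputated lines 1 of 6 was called against 11.4%. Between amputated lines 0 of 6 were called, against 12.9% of all probe sets. At an unadjusted p under 0.05 in the same limma fit there were also 0. Counts at that threshold are given without the share of all genes reaching it. The shares printed here and below are of adjusted calls.

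Further genes used as epicardial markers were followed in a list of 21, of which 11 were measured, each by its probe set with the highest mean. The RNA came from whole hearts, and which cells these signals came from was not tested. In the WT response 8 of the 11 were higher and 1 was lower after amputation, against 26.2% of all genes called, and their median difference was 0.71 against -0.06 for all genes. tgm2b, a transglutaminase that crosslinks proteins, rose by 1.97 ± 0.17 (adjusted p = 7.15e-06). Its values were 7.97, 8.02 and 7.67 before and 9.94, 9.48 and 10.16 after amputation, without overlap. nrp1a, a neuropilin co-receptor for growth factors, rose by 0.92 ± 0.11 (adjusted p = 0.000159). podxl, the cell surface sialomucin podocalyxin, rose by 0.71 ± 0.10 (adjusted p = 0.00048). These 3 genes were called in all 20 alternatives.

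The other 6 calls of the epicardium list in WT were lost in some alternatives. cav1, which encodes the coat protein of caveolae, rose by 0.85 and was called in 19 of 20. The matrix linker gene hapln1a rose by 0.60 (17 of 20), the nuclear receptor gene nr2f1a by 0.87 (16 of 20), cavin1b, another caveolar gene, by 0.36 (14 of 20) and the tight junction gene cldn11a by 0.78 (11 of 20). The transcription factor gene hand2 fell by 0.43 (10 of 20). The signal of nr2f1a was low in unamputated WT hearts, at 4.21, 3.99 and 4.43. The other 5 probe sets of hapln1a were not called in WT. Leaving out single arrays moved the count of higher genes from 8 down to 4, reached without array 3 of amputated WT, and the erythrocyte covariate gave 5.

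In dnHIF1a hearts 2 genes of the epicardium list were higher and 1 was lower after amputation, against 11.0% of all genes called. The median difference was 0.14, with -0.023 for all genes. tgm2b rose by 0.78 ± 0.17 (adjusted p = 0.0113), from 8.03, 7.73 and 7.69 to 8.37, 8.66 and 8.76. Without array 3 of amputated dnHIF1a its adjusted p was 0.0509. cavin1b rose by 0.57 ± 0.11 (adjusted p = 0.00677), and cldn11a fell by 0.86 (adjusted p = 0.042), a call that held in 10 of 20 alternatives.

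The difference of the responses was called for 3 genes of this list, each lower in dnHIF1a, against 2.59% of all genes. It was -1.19 ± 0.24 for tgm2b (adjusted p = 0.0235), -1.64 ± 0.34 for cldn11a (adjusted p = 0.0291) and -0.73 ± 0.17 for cav1 (adjusted p = 0.0484). These calls held in 14, 11 and 5 of 19 alternatives, respectively. Leaving out single arrays moved this count between 0, without array 1 of amputated dnHIF1a, and 3, and the erythrocyte covariate gave 0. Before amputation cldn11a was 2.32 ± 0.24 higher in dnHIF1a (adjusted p = 5.83e-05), cav1 1.00 ± 0.12 (adjusted p = 0.000199) and nrp1a 0.81 ± 0.11 (adjusted p = 0.000537), against 12.5% of all genes called. These 3 calls held in all 20 alternatives. cldn11a read 5.61, 5.86 and 5.44 in unamputated WT hearts and 7.54, 8.51 and 7.81 in unamputated dnHIF1a hearts.

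After amputation 1 gene of the epicardium list was higher and 1 lower in dnHIF1a than in WT hearts, against 14.2% of all genes called. tgm2b was lower by a difference of -1.26 ± 0.17 (adjusted p = 0.000466) in all 20 alternatives. cavin1b was 0.41 higher (adjusted p = 0.032, 14 of 20). In the mean response over both lines 6 of the 11 were higher and 0 lower, against 30.0% of all genes called. These 6 were cav1, cavin1b, hapln1a, nrp1a, podxl and tgm2b, with differences between 0.37 for hapln1a and 1.38 for tgm2b.

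**Figure D3:**
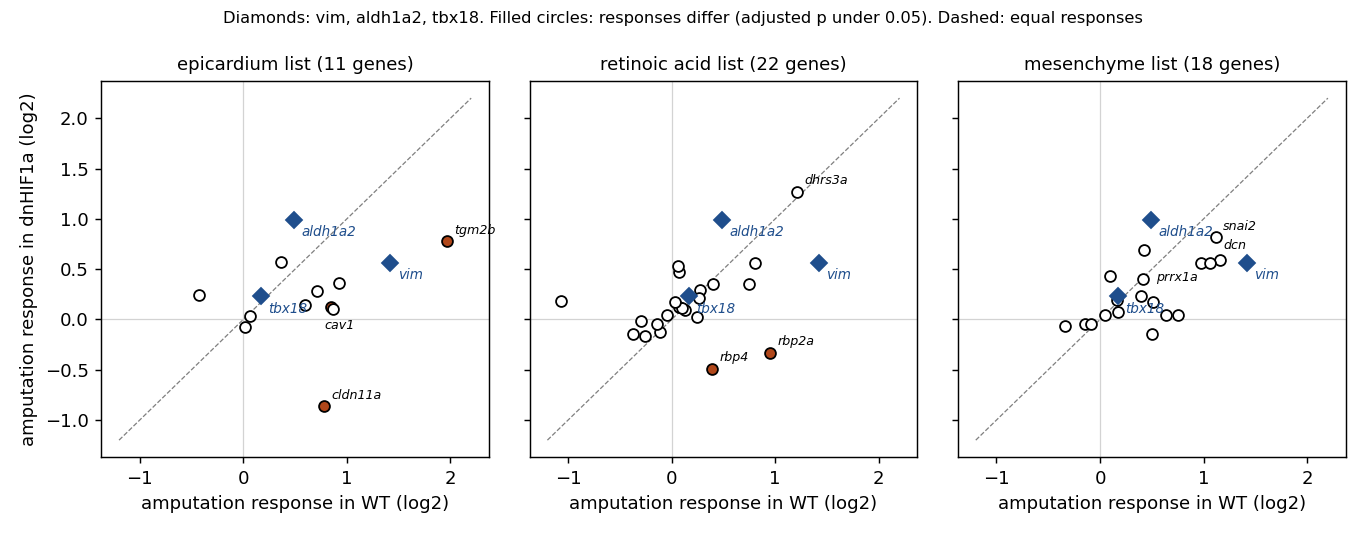
Amputation response in dnHIF1a (vertical axis, log2) against that in WT (horizontal axis, log2) for the measured genes of 3 lists, with vim, aldh1a2 and tbx18 as diamonds in each panel. Filled circles mark genes whose responses differed at an adjusted p under 0.05, and the dashed line marks equal responses. vim and tgm2b lie below the line and aldh1a2 lies above it, the last without a called difference.

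Retinoic acid acts through a chain of enzymes and carriers that supply, make and degrade it and of nuclear receptors that bind it, and 22 genes of this chain beside aldh1a2 were measured. In WT hearts 6 were higher and 2 lower after amputation, where 26.2% of all genes were called, and in dnHIF1a hearts 4 were higher and 1 lower, against 11.0% of all genes. The median differences were 0.087 and 0.11, against -0.06 and -0.023 for all genes. With the erythrocyte covariate the counts of higher genes were 2 in WT and 3 in dnHIF1a. Leaving out single arrays moved the WT count between 4, without array 3 of unamputated WT, and 7, without array 1 of amputated WT. The dnHIF1a count moved between 2, without array 1 of unamputated dnHIF1a, and 6, without array 2 of amputated WT. dhrs3a, a reductase that turns retinaldehyde back into retinol, rose in both lines, by 1.21 ± 0.17 in WT (adjusted p = 0.000448) and by 1.27 ± 0.17 in dnHIF1a (adjusted p = 0.000637). Its log2 values were 5.54, 4.81 and 4.81 in unamputated and 6.41, 6.07 and 6.3 in amputated WT hearts, where array 1 was again the highest of the unamputated arrays. In dnHIF1a they were 5.28, 5.2 and 5.47 before and 6.64, 6.71 and 6.41 after amputation, and no groups overlapped within a line.

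Among the carriers, rbp4, the retinol carrier of plasma, rose by 0.39 in WT (adjusted p = 0.0168) and fell by 0.49 in dnHIF1a (adjusted p = 0.0106). The rise in WT was 0.15 with an adjusted p of 0.627 with the erythrocyte covariate, and its call was also lost without array 3 of either WT group. The responses differed by -0.88 ± 0.15 (adjusted p = 0.0117). Before amputation it was 1.14 ± 0.10 higher in dnHIF1a (adjusted p = 1.97e-05), with 12.15, 12.49 and 12.1 against 11.12, 11.2 and 10.99 in WT. The cellular retinol carrier gene rbp2a rose by 0.95 in WT (adjusted p = 0.00439). Its responses differed by -1.28 ± 0.28 (adjusted p = 0.0323), and after amputation it was lower in dnHIF1a by a difference of -0.98 (adjusted p = 0.0063). crabp2b, which encodes a retinoic acid binding protein, rose by 0.80 in WT (adjusted p = 0.00493). Its signal was low, from 4.36, 4.02 and 4.07 before to 4.76, 4.67 and 5.43 after amputation. With the erythrocyte covariate the adjusted p was 0.118 for the difference of rbp4 and 0.204 for that of rbp2a, and the latter was called in 10 of 19 alternatives. In the same fit the WT rises of rbp2a and crabp2b had adjusted p-values of 0.189 and 0.258. For rbp2a between amputated lines it was 0.0548.

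The receptor gene rxrga rose by 0.75 ± 0.11 in WT hearts (adjusted p = 0.000485) in all 20 alternatives. raraa, another receptor gene, rose by 0.27 in WT and by 0.29 in dnHIF1a, calls that held in 8 and 9 of 20 alternatives. rarga was higher in dnHIF1a by 0.64 before (adjusted p = 0.00846) and by 0.59 after amputation (adjusted p = 0.0131), the latter called in 17 of 20 alternatives and at 0.49 with an adjusted p of 0.111 with the erythrocyte covariate. Its other probe set was not called before amputation (0.31, adjusted p = 0.0764) and was called after it (0.35, adjusted p = 0.0432). cyp26c1, of the family that degrades retinoic acid, fell by 0.37 in WT (adjusted p = 0.0154, 18 of 20). With the erythrocyte covariate its adjusted p was 0.108. The dehydrogenase gene dhrs9 rose by 0.53 in dnHIF1a (adjusted p = 0.00339) and had been lower there before amputation, by a difference of -0.47 (adjusted p = 0.00528). aldh8a1 rose by 0.47 in dnHIF1a (adjusted p = 0.0366, 14 of 20), and rdh1 fell by 0.26 in WT (adjusted p = 0.0455, 6 of 20). In the mean response 8 genes of this list were higher and 2 lower, against 30.0% of all genes called, and 4 were higher with the erythrocyte covariate. The 8 include rdh10b, at 0.24 (adjusted p = 0.0463, 7 of 19).

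Genes of mesenchyme and of the transition from epithelium to mesenchyme were followed in a list of 18 measured genes. In WT hearts 10 were higher and 1 lower after amputation, against 26.2% of all genes called, with a median difference of 0.41 against -0.06 for all genes. The 10 include cdh1, which encodes the cadherin of epithelial cells and so is not a mesenchymal marker. It rose by 0.51 (19 of 19 alternatives) at a low signal, from 3.47, 3.44 and 3.39 to 3.77, 4.03 and 4.04. In dnHIF1a hearts 6 were called higher and 0 lower, against 11.0% of all genes called (8 and 0 at an unadjusted limma p under 0.05). The median was 0.18 against -0.023. Without array 2 of unamputated dnHIF1a, 4 were higher there, and without array 1 of unamputated WT, 7 were. The proteoglycan gene dcn rose by 1.16 ± 0.12 in WT (adjusted p = 3.82e-05) and 0.59 ± 0.12 in dnHIF1a (adjusted p = 0.0081). The homeobox gene prrx1a, a marker of mesenchyme, rose by 1.06 ± 0.11 (adjusted p = 4.18e-05) and 0.56 ± 0.11 (adjusted p = 0.00675). Both were called in all 20 alternatives in each line.

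Among the transition factors, snai2 rose by 1.12 in WT (adjusted p = 0.00162) and by 0.82 in dnHIF1a (adjusted p = 0.0197, 16 of 20), but its other probe sets were not called. snai1a rose by 0.42 in WT (adjusted p = 0.0143, 19 of 20) and by 0.69 in dnHIF1a (adjusted p = 0.00159). zeb1b fell by 0.34 in WT (adjusted p = 0.0168, 18 of 20). No gene of this list had a called difference of the responses, against 2.59% of all genes. At an unadjusted limma p under 0.05 it had 6, each lower in dnHIF1a, with no share of all genes at that threshold beside it. With the erythrocyte covariate the count of genes higher after amputation in WT was 5. Between unamputated lines 2 genes of this list were called higher and 0 lower in dnHIF1a, against 12.5% of all genes called. This count lies near that share. At an unadjusted limma p under 0.05 it was 4 higher and 1 lower, with no share at that threshold beside it. Between amputated lines 2 were higher and 2 lower in dnHIF1a, against 14.2%. Of the vim-related intermediate filament genes 12 were measured, and their median difference was -0.005 in WT and 0.05 in dnHIF1a. The epithelial keratin gene krt18b rose by 1.83 ± 0.18 in WT (adjusted p = 2.7e-05) and by 1.22 ± 0.18 in dnHIF1a (adjusted p = 0.00109), and krt8 rose by 0.82 (19 of 20) and 0.52 (14 of 20). The muscle filament gene desma fell by 0.37 in WT (adjusted p = 0.00678, 19 of 20). It was lower in dnHIF1a before amputation, by a difference of -0.56 (adjusted p = 0.000828).

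Markers of other cell types that contain vimentin did not all move with vim. Of 16 leukocyte genes, 9 were higher and 1 lower after amputation in WT, against 26.2% of all genes called, and 3 were higher with the erythrocyte covariate. In dnHIF1a 12 were called higher and 0 lower, against 11.0% of all genes called (14 and 0 at an unadjusted limma p under 0.05). Between unamputated lines, where vim was higher in dnHIF1a, 11 leukocyte genes were called lower and 0 higher there, against 12.5% of all genes called. At an unadjusted limma p under 0.05 these counts were 13 and 0. The mean of the list was 6.92 to 7.26 on the unamputated dnHIF1a arrays against 7.94 to 8.12 in unamputated WT hearts, and 7.95 to 8.18 against 8.47 to 8.82 after amputation. Of 7 endothelial genes 0 were called higher in either amputation response, also 0 at an unadjusted limma p under 0.05. In WT 2 of them were called lower, against 26.2% of all genes called (3 at the unadjusted threshold). In dnHIF1a 1 was called lower, against 11.0% (also 1 at the unadjusted threshold). Both counts lie near the share over all genes, and 0 were lower in either with the erythrocyte covariate. Between unamputated lines 1 endothelial gene was higher and 1 lower in dnHIF1a, against 12.5%.

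Of the 4 measured smooth muscle genes, 2 were higher and 1 lower after amputation in WT, against 26.2% of all genes called. In dnHIF1a 1 was higher and 1 lower, against 11.0%, and before amputation 3 were higher in dnHIF1a than in WT, against 12.5%. The mean of the 4 was 7.47 to 7.77 in unamputated WT, 8.46 to 8.74 in amputated WT, 8.39 to 8.85 in unamputated dnHIF1a and 9.09 to 9.22 in amputated dnHIF1a hearts. The actin-binding gene tagln rose by 2.55 ± 0.22 in WT (adjusted p = 9.92e-06) and by 1.98 ± 0.22 in dnHIF1a (adjusted p = 0.000182). Before amputation acta2, smooth muscle actin, was 1.74 ± 0.23 higher in dnHIF1a (adjusted p = 0.000374), tagln 1.19 ± 0.22 (adjusted p = 0.00409) and the kinase gene mylka 1.15 ± 0.18 (adjusted p = 0.00151). smtnb, a smoothelin gene, went the other way: it fell by 0.41 in WT and by 0.55 in dnHIF1a, in all 20 alternatives, and after amputation was lower in dnHIF1a by a difference of -0.43 (17 of 20). Of the 18 erythrocyte genes, 11 were higher and 2 lower after amputation in WT, against 26.2% of all genes called. In dnHIF1a 0 were called higher and 1 lower, against 11.0% of all genes called (1 and 1 at an unadjusted limma p under 0.05). The part of these cell types in the vim result was not tested.

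**Figure D4:**
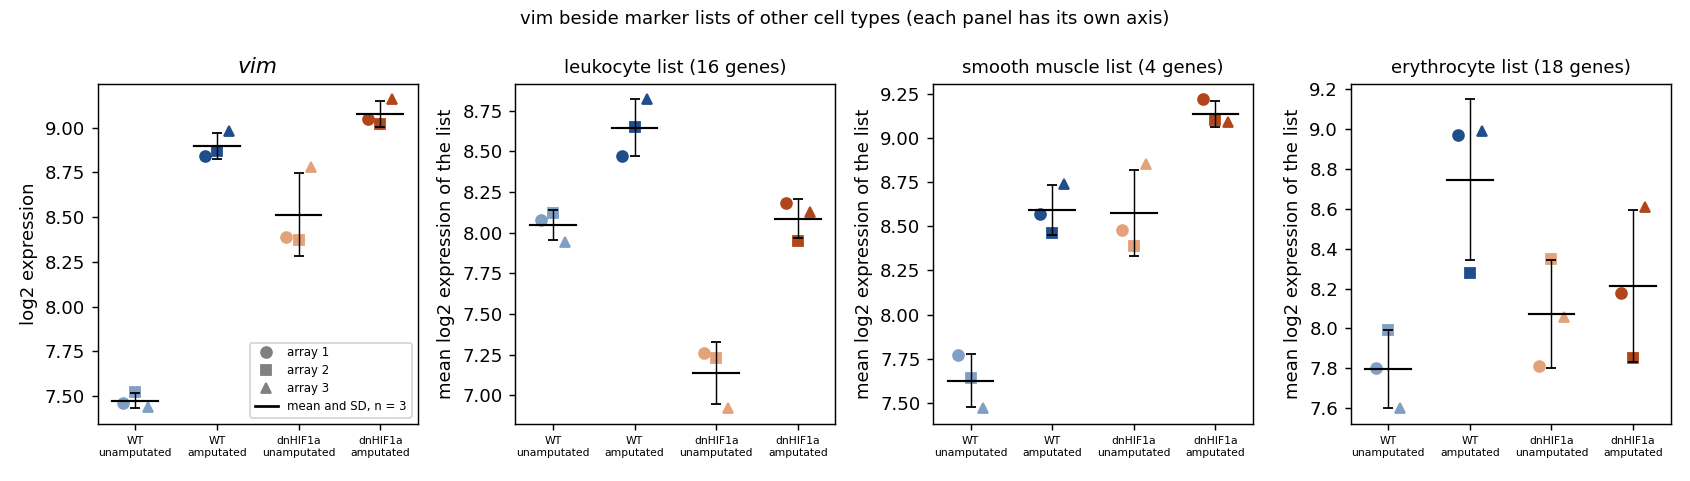
Log2 expression of vim and the mean log2 expression of 3 marker lists (vertical axes, each on its own scale) in the 4 groups. Symbols are single arrays and bars are means with SD (n = 3). In unamputated dnHIF1a hearts the leukocyte mean (6.92 to 7.26) lies below, and the smooth muscle mean (8.39 to 8.85) above, that of unamputated WT hearts.

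The genes with the profile most like that of vim over the 12 arrays were dkk3b, of the secreted Dickkopf family (Pearson's r = 0.968), lrp1aa, an endocytic receptor of the LDL receptor family (0.955), the ecto-nucleotidase gene nt5e (0.952), the secreted glycoprotein gene fstl1b (0.95) and flna, which encodes the actin crosslinker filamin (0.946). They were chosen for this likeness, so their levels are a description. dkk3b had group means of 6.14 in unamputated WT, 7.61 in amputated WT, 7.21 in unamputated dnHIF1a and 8.16 in amputated dnHIF1a hearts. nt5e read 7.23, 7.3 and 7.61 in unamputated WT and 8.49, 8.44 and 8.53 in unamputated dnHIF1a hearts. All 5 had their lowest group mean in unamputated WT hearts. Once each array's deviation from its group mean was taken, the correlations with vim ran from -0.17 to 0.46, so the likeness lay between groups rather than between arrays of a group.

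For aldh1a2 the most similar profiles were those of pdcd6 (r = 0.944), actb1 (0.93), cd63 (0.92), cc2d1b (0.919) and krt18a.1 (0.919). Here the deviations from the group means were also correlated, at 0.72 to 0.95. On array 1 of unamputated WT, the array that decided the aldh1a2 call, the keratin gene krt18a.1 read 11.78 against 10.26 and 10.25 on the other two arrays of that group. The membrane protein gene cd63 read 12.38 against 11.7 and 11.72, and the cytoplasmic actin gene actb1 read 11.95 against 11.53 and 11.43. pdcd6 read 8.07 against 7.63 and 7.57, while cc2d1b, at 6.59 against 6.49 and 6.59, was not high there. The 5 genes were chosen for their likeness to aldh1a2 over these same arrays, so a shared high array is part of that choice.

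The profiles most like tbx18 were those of mat1a (r = 0.881), cdc34a (0.878), the Wnt receptor gene ror2 (0.874), dusp7 (0.867) and hspb8 (0.823), with correlations of the deviations of 0.71 to 0.84. On array 1 of unamputated WT, the lowest for tbx18 at 5.53, mat1a read 5.01 against 6.02 and 6.09. For wt1a, by the probe set Dr.8214.2.S1_a_at, they were ppm1ba (0.912), hdac10 (0.906), acat2 (0.889), dmrt2a (0.886) and atp1a1a.5 (0.878), with correlations of the deviations of 0.81 to 0.90. The 12 arrays share their groups, and these values describe this data set only.

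**Figure D5:**
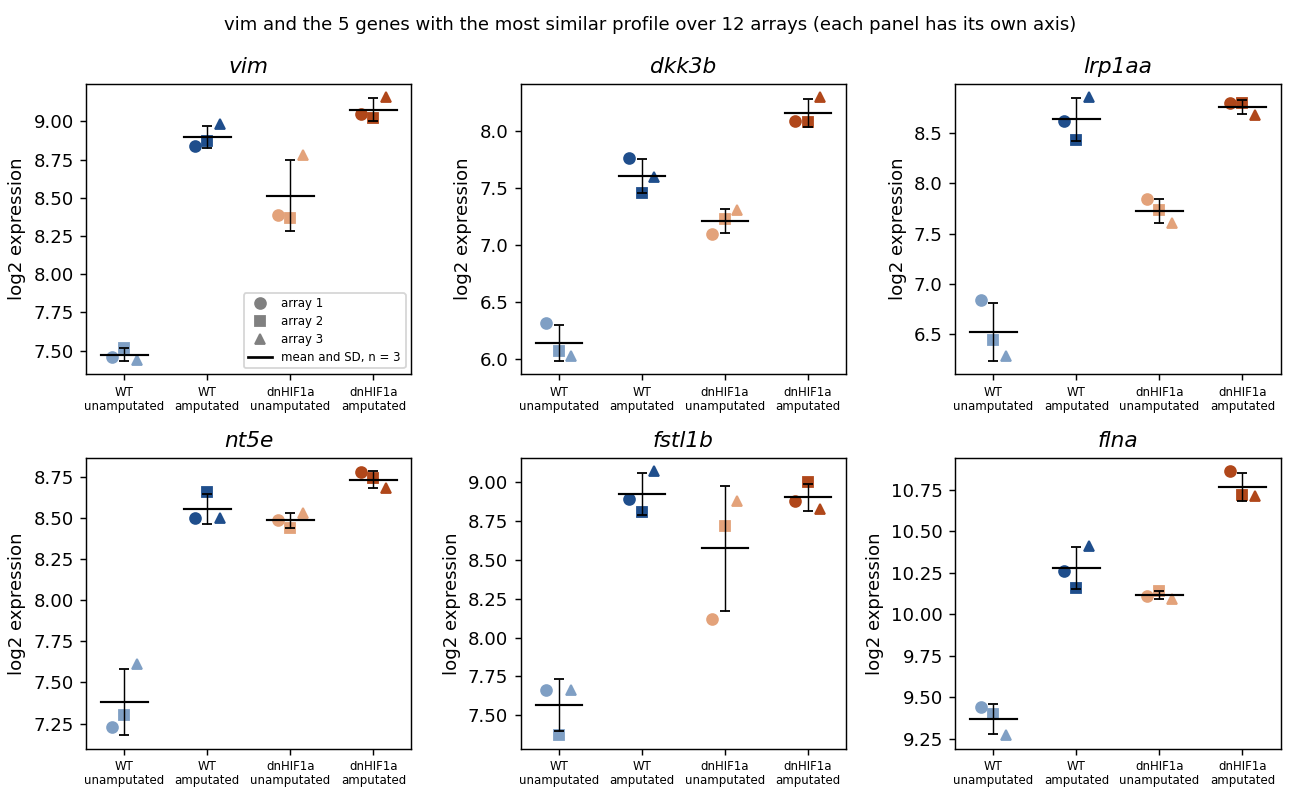
Log2 expression (vertical axes, each panel on its own scale) of vim and the 5 genes with the highest Pearson correlation with it over 12 arrays. Symbols are single arrays and bars are means with SD (n = 3). In all 6 panels the unamputated WT arrays are the lowest, and unamputated dnHIF1a hearts lie above them.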

How the data were processed

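RNA from whole hearts was extracted with Trizol, amplified from 200 ng and labelled with biotin, per the labels' protocols. The deposited log2 values per probe set were made by the authors with RMA, per the submitters' processing notes, which also name limma. Neither version, nor the step limma was used for, is given in the sources used here. The values were used as deposited. Of 15617 probe sets, 115 controls were left out. The platform table gave 10795 a single gene, and 10711 of these matched the RefSeq table by Entrez identifier. A gene is represented by its probe set with the highest mean (8793 genes). Probe positions and sequences were not used here.

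The 12 arrays were modelled with 1 mean for each group in limma 3.58.1 under R 4.3.3 (8 residual and 4.46 prior degrees of freedom). The tests were two-sided, and p-values were adjusted over all 15502 probe sets in each of 6 comparisons. The procedure was checked on simulated data with independent noise for each probe set and array. That check cannot speak to array-wide differences, such as those in the erythrocyte genes. The number of arrays limits the precision.

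The members, the 13 gene lists and the alternatives were chosen with earlier results of these data known. Named are all member probe sets, the called genes of the epicardium and retinoic acid lists, and the 5 genes most correlated with each member. Of the other lists only some called genes are named. That selection did not follow the order of p throughout, so these are not always the genes with the smallest p. The fits were repeated with a second quantile normalization, with median-centred arrays, without the dimmest 25% and with a trended and robust prior. They were also repeated with array weights, on the compared groups alone and with replicate number as a block. Further repeats used the mean of 18 erythrocyte genes as a covariate or left out each array in turn. A fit on the mean of a gene's probe sets served the list counts only and is not among the alternatives counted for single genes. In it the epicardium list had 7 genes higher in WT and 5 higher in the mean response. It also had 2 with a called difference of the responses, lower in dnHIF1a, and 2 higher in dnHIF1a between amputated lines.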

Additional observations from a re-analysis of the deposited data

Results flagged for a closer look

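The amputation responses of 7 genes differed between the lines by a test of the difference itself. They were counted among the members and the epicardium, retinoic acid, mesenchyme and intermediate filament lists. Differences are given here as dnHIF1a minus WT on the log2 scale, and 2.59% of all genes were called. For vim the difference was -0.86, since it rose by 1.42 in WT and by 0.56 in dnHIF1a. For the epicardium list it was -0.73 for cav1, -1.64 for cldn11a and -1.19 for tgm2b. For the retinoic acid list it was -1.28 for rbp2a and -0.88 for rbp4. For the intermediate filament gene desma it was 0.56. The call for desma held in 10 of 19 alternatives. Outside these lists, 1 of 16 leukocyte genes, grna, had a called difference of 0.86, in 18 of 19 alternatives. The epithelium list had 2 of 12 genes with a called difference, each below 0, and also 2 with the erythrocyte covariate. Of 18 erythrocyte genes 1 had a called difference above 0, while the median of that list was -0.54, against 0.03 for all genes. The genes named for their likeness to vim are not counted, since they were chosen by their profile over the same arrays.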

How the results depend on the processing

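The called responses of vim in each line, its difference between unamputated lines and the response of aldh1a2 in dnHIF1a kept their call in every alternative run. Setting aside the fits without single arrays, 248 of 258 values of the member probe sets kept their direction and their side of the threshold. With the erythrocyte covariate the mean response of aldh1a2 was 0.47, the difference of the vim responses -0.78, and the mean responses of tbx18 and of wt1a (Dr.8214.2.A1_at) 0.23 and -0.17, all no longer called. The mean response of tbx18 was also not called under the repeated quantile normalization (0.19), the trended and robust prior (0.20) or the replicate block (0.20), and that of Dr.8214.2.A1_at not under the repeated quantile normalization (-0.13). The cause was not tested.

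Leaving out single arrays moved the WT response of aldh1a2 between 0.32 and 0.75 and its difference between unamputated lines between -0.42 and 0.0083. It moved the mean response of tbx18 between 0.15 and 0.23 and that of Dr.8214.2.A1_at between -0.17 and -0.13. The sign of differences close to 0 that were not called turned in some of these fits. They ranged from -0.013 to 0.16 for the difference of the tbx18 responses and from -0.08 to 0.09 for tbx18 between unamputated lines, which was -0.0068 with array weights. Between amputated lines the range was -0.03 to 0.047 for Dr.8214.1.S1_at (-0.0073 with the erythrocyte covariate), -0.025 to 0.065 for Dr.8214.2.A1_at and -0.028 to 0.072 for Dr.8214.2.S1_a_at. For the last, the difference of the responses ranged from -0.005 to 0.11 and that between unamputated lines from -0.077 to 0.033.

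The number of called probe sets in the WT response was 3532, and 2338 with only the groups compared, which tests fewer samples. With the erythrocyte covariate it was 708, and 25 in the difference of the responses, 1653 in the mean response and 947 between amputated lines. Without single arrays it ranged from 909 to 1774 in dnHIF1a, from 149 to 590 in the difference and from 1138 to 2317 between amputated lines. The deviations of arrays sharing a replicate number correlated at -0.191 to 0.133. Arrays with different numbers were not compared in this way, so these values do not settle whether the numbers pair the arrays. The replicate block changed no member call besides the mean response of tbx18. The fit on only the groups compared gives no difference or mean of the responses, and wt1a lies among the dimmest probe sets left out in another, so these have no value there. No detection calls were used, so the wt1a signals cannot be set against background.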
